A study of Mus musculus with 6 samples.

Results

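The clathrin adaptor complex AP2 and 5 further genes of synaptic vesicle endocytosis were followed in the hippocampus of Phf21bΔ4/Δ4 and Phf21b+/+ mice. The 10 genes were taken by symbol from the 14477 genes with a log2 CPM value (counts of reads scaled to library size, on a log2 scale). They are the AP2 subunit genes *Ap2a1*, *Ap2a2*, *Ap2b1*, *Ap2m1*, and *Ap2s1*, the clathrin heavy chain gene *Cltc*, the dynamin genes *Dnm1* and *Dnm3*, and the synaptojanin genes *Synj1* and *Synj2*. All 10 were measured in all 6 mice.

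RNA-Seq was performed on hippocampal tissue with 1 library per mouse. Phf21bΔ4/Δ4 replicates 2, 3, and 6 were compared with Phf21b+/+ replicates 5, 7, and 8. The Phf21bΔ4/Δ4 mice carry on both alleles a CRISPR/Cas9 deletion in the *Phf21b* exon that encodes the PHD finger, made in the whole body and not in one cell type, and the study describes the line as a knockdown. The Phf21b+/+ mice carry both intact alleles, and the study worked with young adult littermates of both sexes. Both genotypes were on a C57BL/6J background, received no treatment, and were sampled at baseline. Which of these mice was male or female, its exact age, the founder number, the dissection, and any library batch were not given in the sources used here. *Phf21b* itself had 2.16, 3.58, and 3.88 CPM in Phf21bΔ4/Δ4 replicates 2, 3, and 6 and 6.51, 5.24, and 6.48 CPM in Phf21b+/+ replicates 5, 7, and 8. The genotypes did not overlap, but the log2 fold change of -0.96 was not past the FDR threshold (FDR 0.14, limma).

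When a synaptic vesicle has fused, its membrane and proteins are taken back from the surface, and AP2 binds both the cargo and the lipid PI(4,5)P2 and recruits clathrin to the site. Clathrin forms the coat, dynamin cuts the neck of the bud, and synaptojanin removes phosphates from the lipid so that the coat can come off. In the hippocampus, this cycle keeps presynaptic terminals supplied with vesicles, and AP2 also takes up AMPA-type glutamate receptors on the postsynaptic side.

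The start regions of the 10 genes were searched for the cAMP response element, the DNA motif that the factor CREB binds, because the study examined CREB in the same tissue. The windows were those of RefSeq on GRCm38.p6, from 250 bases before to 50 bases after each gene start, and all 10 symbols matched (*Synj1* and *Synj2* with 2 windows each). The full element TGACGTCA, which reads the same on both strands, was in the window of 1 of the 10 genes, *Ap2b1*. The shorter TGACG, searched on both strands and contained in the full element, was in the windows of 3 of the 10 genes, *Ap2b1*, *Ap2m1*, and *Synj1*. Over the 11292 listed genes with a window, 3.50% held the full element and 34.4% held the shorter one. The 30 bases around each match are shown 5′ to 3′ on the strand of the gene, with the matched letters in capitals.
Ap2b1, 47 bases upstream of the RefSeq start, chr11:83302639-83302668, plus strand: gcgcacccagaTGACGTCAggcggcgagat
Ap2m1, 145 bases upstream, chr16:20535323-20535352, plus strand: gcgcactaaagcTGACGtcttctctgtctt
Ap2m1, 55 bases upstream, chr16:20535413-20535442, plus strand: agctgcggggacTGACGggacttgtagtcg
Synj1, 63 bases upstream, chr16:91011141-91011170, minus strand: ctggagcggaagTGACGcttcgggcggctg
The *Ap2b1* match lies in a 5′ UTR of a longer GENCODE transcript of *Ap2b1*, and the *Synj1* match lies in coding sequence of a longer *Synj1* transcript. The 250 bases before the *Synj2* start, which hold neither motif, are shown because *Synj2* was, with *Ap2b1*, one of the genes past the thresholds of the test.
Synj2, chr17:5975330-5975579, plus strand: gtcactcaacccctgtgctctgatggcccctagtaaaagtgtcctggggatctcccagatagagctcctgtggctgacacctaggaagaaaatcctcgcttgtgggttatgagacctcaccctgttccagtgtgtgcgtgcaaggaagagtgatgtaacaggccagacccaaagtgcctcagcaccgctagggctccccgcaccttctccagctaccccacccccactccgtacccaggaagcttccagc
GENCODE starts the *Synj2* gene further upstream, at 5941280, and the region before that start was not searched.

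The question asked of each gene was whether its level differed between the genotypes. All 10 genes had a higher mean in Phf21bΔ4/Δ4 mice, with log2 fold changes from 0.11 for *Ap2s1* to 0.79 for *Synj1* and a median of 0.45. The median over all 14477 genes was -0.019. Over the genes with a mean log2 CPM of 6 or more it was 0.11, and 69.4% of them were higher. *Ap2b1* rose 1.62-fold and *Synj2* rose 1.72-fold, and both were past both thresholds (FDR under 0.1, more than 1.3-fold) in limma's moderated test. Over all genes, 0.553% were past the same thresholds with a higher level in Phf21bΔ4/Δ4 mice, and 1.22% in either direction. Of the 3826 genes with a mean log2 CPM of 6 or more, 45 were past them with a higher level. In 6 of the 10 genes each Phf21bΔ4/Δ4 mouse lay above each Phf21b+/+ mouse, which was so for 15.0% of all genes and for 30.6% of the 3826 genes whose mean log2 CPM was 6 or more, the range in which all 10 lie. An unadjusted p under 0.05 with a higher level in Phf21bΔ4/Δ4 mice was given by limma for 7 of the 10 genes, for 11.6% of all genes, and for 26.2% of those same 3826 genes. *Ap2b1* and *Synj2* are also on the study's list of differentially expressed genes, which was made from these libraries, so their calls are not independent evidence. In bulk tissue, more cells of a type and more RNA per cell cannot be told apart, and nor can fewer cells and less RNA.

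**Figure D1:**
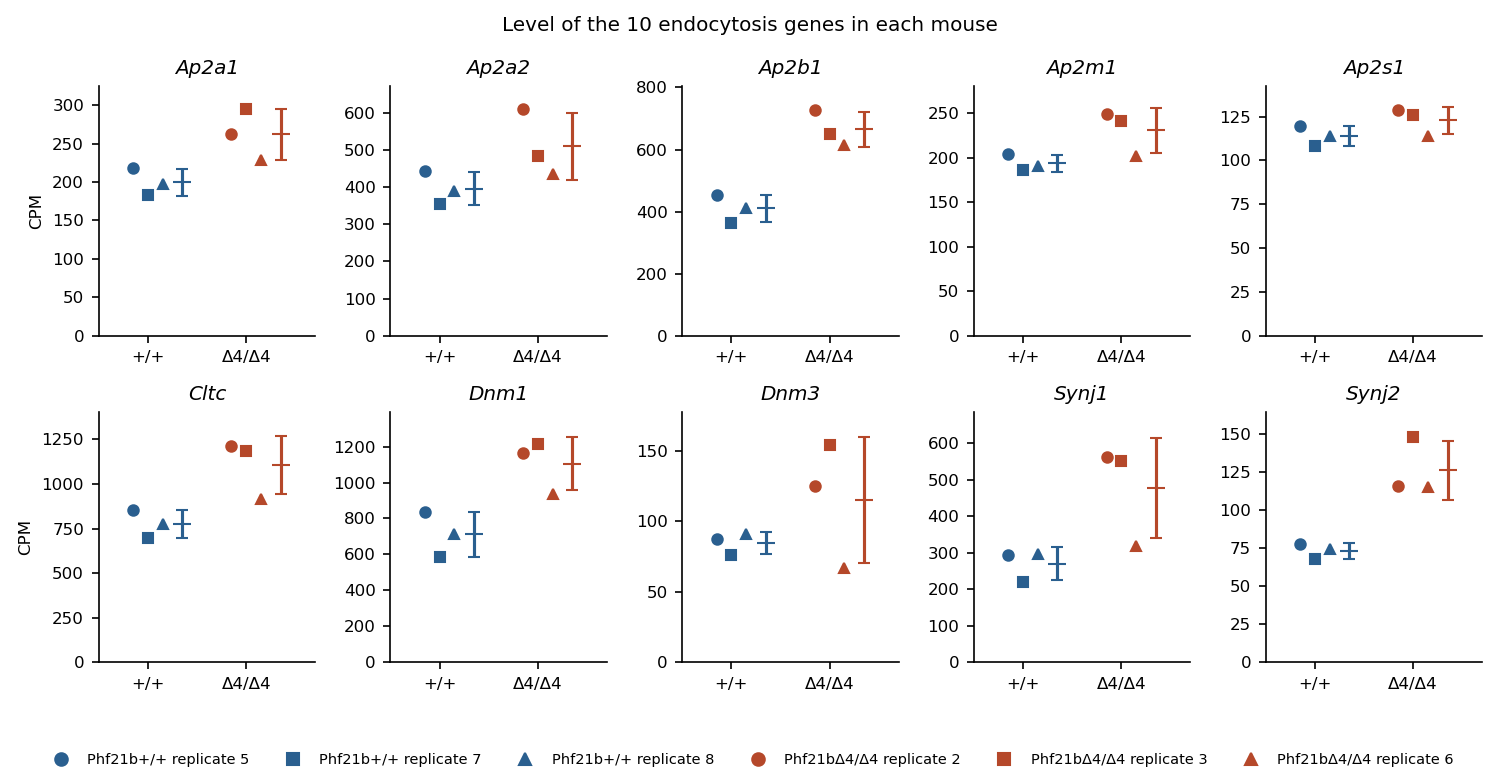
Level of each of the 10 genes in CPM, 1 point per mouse, with the Phf21b+/+ mice at the left and the Phf21bΔ4/Δ4 mice at the right of each panel. The horizontal line and bars beside the points are the mean and the SD (n = 3), the vertical axes start at 0, and Phf21bΔ4/Δ4 replicate 6 (triangles) is the lowest mouse of its genotype in every panel.

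*Ap2b1* (ENSMUSG00000035152.14, GRCm38 chr11:83299024-83405035, plus strand) encodes the β2 subunit, which binds clathrin. It had 727, 651, and 616 CPM in Phf21bΔ4/Δ4 replicates 2, 3, and 6 and 454, 365, and 413 CPM in Phf21b+/+ replicates 5, 7, and 8. The lowest Phf21bΔ4/Δ4 mouse lay above the highest Phf21b+/+ mouse by more than the range within either genotype. This came to a log2 fold change of 0.70, with a standard error of 0.11 and a 95% interval of 0.42 to 0.97 (FDR 0.079, limma). With 1 mouse left out in turn it stayed between 0.62 and 0.77, but the FDR was under 0.1 only without Phf21bΔ4/Δ4 replicate 6 (0.025) and reached 0.30 without Phf21b+/+ replicate 8.

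*Ap2a1* (chr7:44900373-44929496, minus strand) and *Ap2a2* (chr7:141562173-141633011, plus strand) encode the alternative α subunits, which bind PI(4,5)P2 and accessory proteins. *Ap2a1* had 263, 295, and 229 CPM in Phf21bΔ4/Δ4 replicates 2, 3, and 6 and 218, 183, and 198 CPM in Phf21b+/+ replicates 5, 7, and 8. *Ap2a2* had 609, 483, and 436 CPM in the Phf21bΔ4/Δ4 mice and 444, 355, and 389.8 CPM in the Phf21b+/+ mice, in the same order. The genotypes did not overlap for *Ap2a1*, whereas for *Ap2a2* Phf21bΔ4/Δ4 replicate 6 lay below Phf21b+/+ replicate 5. The log2 fold change was 0.39 for *Ap2a1* (standard error 0.12, FDR 0.15, limma) and 0.35 for *Ap2a2* (standard error 0.15, FDR 0.21, limma), so neither was past the FDR threshold. *Ap2a1* shares 720 bp of exon with *Fuz* on the opposite strand, and 12.3% of the 75-base stretches of its transcripts occur in *Fuz* transcripts. The strand setting of the counting was not given in the sources used here, so which of the 2 genes a read came from cannot be told there. *Fuz* had between 8.58 and 10.3 CPM in Phf21bΔ4/Δ4 mice and between 11.5 and 17.9 CPM in Phf21b+/+ mice.

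*Ap2m1* (chr16:20535478-20544909, plus strand) encodes the μ2 subunit, which reads tyrosine-based sorting signals in cargo, and *Ap2s1* (chr7:16738410-16749294, plus strand) encodes the small σ2 subunit, which reads dileucine signals. *Ap2m1* had 249, 241, and 202 CPM in Phf21bΔ4/Δ4 replicates 2, 3, and 6 and 204, 186, and 191 CPM in Phf21b+/+ replicates 5, 7, and 8. *Ap2s1* had 129, 126, and 114 CPM in the Phf21bΔ4/Δ4 mice and 119.8, 108, and 114 CPM in the Phf21b+/+ mice, in the same order. These were the closest genotypes among the AP2 subunits, and in both genes Phf21bΔ4/Δ4 replicate 6 lay within the range of the Phf21b+/+ mice. The log2 fold change was 0.25 for *Ap2m1* (95% interval 0.01 to 0.49, FDR 0.20, limma) and 0.11 for *Ap2s1* (95% interval -0.08 to 0.30, FDR 0.41, limma). The *Ap2m1* level is uncertain, because 24.5% of the 75-base stretches of its transcripts also occur in other genes, among them *Gm13509* and *Gm18646*.

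*Cltc* (chr11:86694351-86757565, minus strand) encodes the clathrin heavy chain, the leg of the coat's building block. It had 1211, 1186, and 916 CPM in Phf21bΔ4/Δ4 replicates 2, 3, and 6 and 853, 698, and 774 CPM in Phf21b+/+ replicates 5, 7, and 8. The genotypes did not overlap, with Phf21bΔ4/Δ4 replicate 6 close to the Phf21b+/+ range. With a log2 fold change of 0.50 and a standard error of 0.15, *Cltc* was not past the FDR threshold (FDR 0.15, limma).

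*Dnm1* (chr2:32308471-32353338, minus strand) and *Dnm3* (chr1:161982453-162478034, minus strand) encode the dynamins that neurons add to the ubiquitous *Dnm2*. *Dnm1* had 1164, 1215, and 935 CPM in Phf21bΔ4/Δ4 replicates 2, 3, and 6 and 836, 586, and 711 CPM in Phf21b+/+ replicates 5, 7, and 8, and the genotypes did not overlap. *Dnm3* had 125, 154, and 66.7 CPM in the Phf21bΔ4/Δ4 mice and 87.1, 75.9, and 91.2 CPM in the Phf21b+/+ mice, in the same order. For *Dnm3* the Phf21bΔ4/Δ4 mice spread over more than the whole Phf21b+/+ range, with replicate 6 the lowest of all 6 mice and replicates 2 and 3 the highest. The log2 fold change was 0.64 for *Dnm1* (standard error 0.17, FDR 0.14, limma) and 0.37 for *Dnm3* (95% interval -0.33 to 1.06, FDR 0.45, limma). The *Dnm3* change was 0.72 without Phf21bΔ4/Δ4 replicate 6 (FDR 0.028, limma), 0.12 without replicate 3 (FDR 0.83, limma), and 0.15 after a correction for exon length added after the data were seen (FDR 0.70, limma). *Dnm2*, of the same family, had a log2 fold change of 0.11 (FDR 0.41, limma).

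*Synj1* (chr16:90936092-91011308, minus strand) encodes the main synaptojanin of nerve terminals, and *Synj2* (chr17:5941280-6044290, plus strand) encodes its more widely expressed relative. *Synj1* had 561, 552, and 319 CPM in Phf21bΔ4/Δ4 replicates 2, 3, and 6 and 295, 219, and 297 CPM in Phf21b+/+ replicates 5, 7, and 8. *Synj2* had 116, 148, and 115 CPM in the Phf21bΔ4/Δ4 mice and 77.5, 67.6, and 74.1 CPM in the Phf21b+/+ mice, in the same order. Neither gene overlapped between the genotypes, but Phf21bΔ4/Δ4 replicate 6 lay just above the Phf21b+/+ mice in *Synj1* and well above them in *Synj2*. The log2 fold change was 0.79 for *Synj1* (standard error 0.24, FDR 0.16, limma) and 0.78 for *Synj2* (standard error 0.12, FDR 0.069, limma), so the size was alike and the spread of *Synj1* was larger. Leaving out 1 mouse in turn kept the *Synj2* change between 0.66 and 0.85, with an FDR from 0.022 without Phf21bΔ4/Δ4 replicate 6 to 0.27 without Phf21b+/+ replicate 8. *Synj2* shares 297 bp of exon with *Serac1* on the opposite strand (2.63% of its 75-base stretches occur in other genes), and *Serac1* had between 15.2 and 20.8 CPM in Phf21bΔ4/Δ4 mice and between 10.4 and 15.7 CPM in Phf21b+/+ mice.

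The order of the mice was alike across the genes. Phf21bΔ4/Δ4 replicate 6 had the lowest level of its genotype in 10 of the 10 genes, against 37.5% of all genes and 44.4% of those with a mean log2 CPM from 6 up, and Phf21b+/+ replicate 7 had the lowest of its genotype in 10 of the 10, against 43.6% and 60.7%. These genes come from the same 6 libraries, so their order is not independent from gene to gene. Without Phf21bΔ4/Δ4 replicate 6, 8 of the 10 genes (all but *Ap2m1* and *Ap2s1*) were past both thresholds by limma, while 19.5% of all genes were too, against 1.22% with all 6 mice. Without any one of the other 5 mice, none of the 10 genes was past both thresholds by limma, and 0.0622% to 0.311% of all genes were. In these fits 5 to 7 of the 10 had an unadjusted p under 0.05, and all 10 were still higher in Phf21bΔ4/Δ4 mice. The share of all genes at that p is not given for these fits, so the 5 to 7 cannot be set against it.

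The differences also moved with the expression level. Over all genes, the median log2 fold change was -0.59 for those with a mean log2 CPM under 0, -0.013 between 4 and 6, 0.095 between 6 and 8, and 0.22 above 8, and 82.4% of the genes above 8 were higher in Phf21bΔ4/Δ4 mice. *Cltc*, *Dnm1*, *Ap2b1*, *Ap2a2*, and *Synj1* lie above 8, and the other 5 genes lie between 6 and 8. With quantile normalization, which gives each mouse the same distribution of values, the median log2 fold change of the 10 genes was 0.25, and that of *Ap2b1* was 0.44 (FDR 0.11, limma) and that of *Synj2* 0.70 (FDR 0.072, limma). A correction for the mean level, added after the data were seen, gave a median of 0.26, with *Ap2b1* at 0.47 (FDR 0.092, limma) and *Synj2* at 0.70 (FDR 0.082, limma). All 10 genes stayed higher in Phf21bΔ4/Δ4 mice under both, although *Ap2s1* came to 0.01.

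**Figure D2:**
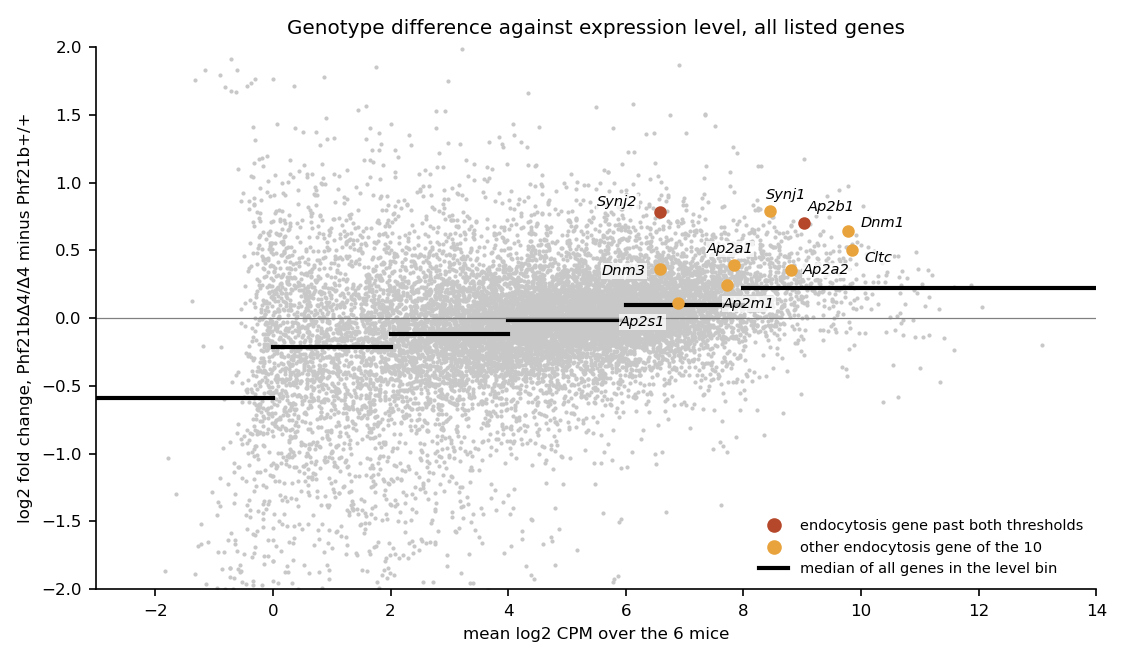
Log2 fold change (Phf21bΔ4/Δ4 minus Phf21b+/+, vertical axis) against the mean log2 CPM over the 6 mice (horizontal axis), with 1 grey point per gene and black bars at the median of each range of levels. The vertical axis is limited to the range from -2 to 2 and the horizontal axis starts at -3, so genes beyond them are not drawn, and the medians climb from -0.59 to 0.22 while all 10 genes lie above the median of their range.

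**Figure D3:**
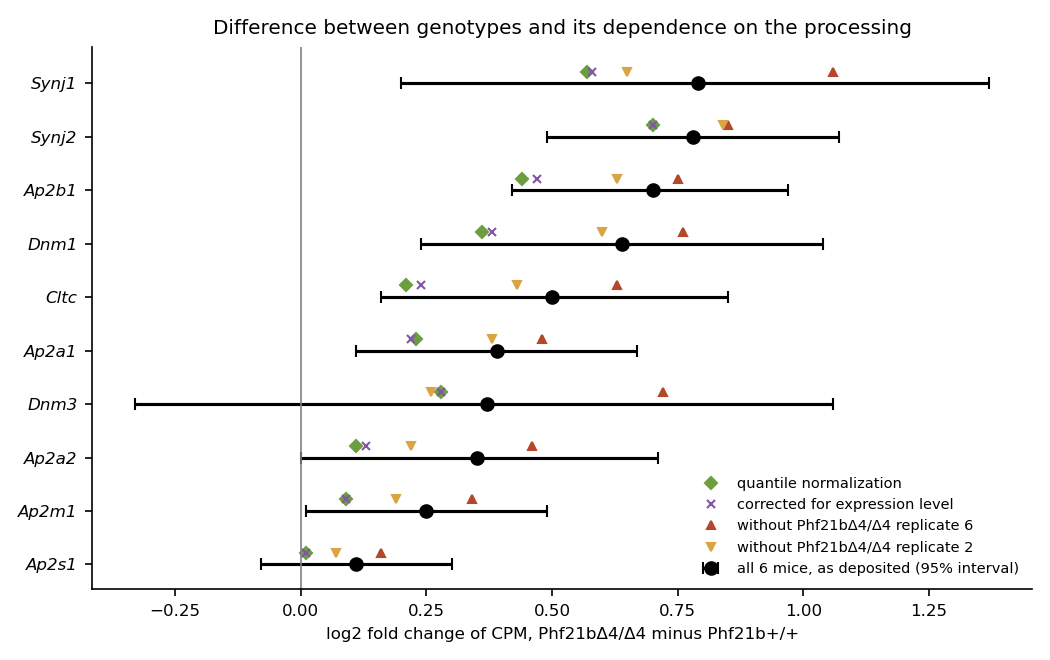
Log2 fold change of each of the 10 genes (Phf21bΔ4/Δ4 minus Phf21b+/+) with all 6 mice (black, bars are the 95% interval from limma) and under 4 other settings (colored). Every setting lies above 0, the values with quantile normalization and with the correction for level lie below the black points, and those without Phf21bΔ4/Δ4 replicate 6 lie above them.

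Ratios between genes of the same mouse were compared next, because a scaling of a whole library cancels in them. A shift that moves with the expression level does not cancel in this way. *Ap2b1* was already past the thresholds in these libraries, so the ratios that hold it are a description and not independent evidence of its change. *Ap2b1* stood, on the log2 scale, 1.44, 1.34, and 1.49 above the mean of the other 4 AP2 subunits in Phf21bΔ4/Δ4 replicates 2, 3, and 6 and 1.04, 0.94, and 1.03 above it in Phf21b+/+ replicates 5, 7, and 8. The ratios of the genotypes did not overlap and differed by 0.42 (exact permutation test, 2-sided, p = 0.1, and 0.2 after Benjamini-Hochberg adjustment over 6 ratios), where 0.1 is the smallest p that 3 mice against 3 can give. The difference stayed between 0.33 and 0.47 under the alternative settings tried, quantile normalization included. *Ap2b1* also stood higher against *Ap1b1*, which encodes the related β subunit of the AP1 complex, at 1.78, 1.60, and 1.92 in the Phf21bΔ4/Δ4 mice and 1.47, 1.40, and 1.53 in the Phf21b+/+ mice. That difference was 0.30 and the genotypes did not overlap (exact permutation test, p = 0.1, adjusted p = 0.2), but it was 0.18 with quantile normalization. *Cltc* stood 0.74, 0.86, and 0.57 above *Ap2b1* in the Phf21bΔ4/Δ4 mice and 0.91, 0.94, and 0.91 above it in the Phf21b+/+ mice. Here the Phf21bΔ4/Δ4 mice were the lower genotype, by 0.19 on the log2 scale, again without overlap (exact permutation test, p = 0.1, adjusted p = 0.2), and the difference was -0.12 without Phf21bΔ4/Δ4 replicate 6.

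The paralog pairs overlapped between the genotypes in each of the 3 ratios tried. The *Ap2a1* to *Ap2a2* ratio was -1.21, -0.71, and -0.93 in Phf21bΔ4/Δ4 replicates 2, 3, and 6 and -1.02, -0.96, and -0.98 in Phf21b+/+ replicates 5, 7, and 8 on the log2 scale (difference 0.03, exact permutation test, p = 0.7). *Ap2a2* was thus the higher of the pair in all 6 mice, with a wider spread in Phf21bΔ4/Δ4 mice. The *Synj2* to *Synj1* ratio differed by -0.01 (exact permutation test, p = 1.0) and ranged from -2.28 to -1.48 in the Phf21bΔ4/Δ4 mice and from -2.01 to -1.69 in the Phf21b+/+ mice. The *Dnm3* to *Dnm1* ratio differed by -0.28 (exact permutation test, p = 0.5), with the lowest value of -3.81 in Phf21bΔ4/Δ4 replicate 6. Without that mouse the difference was -0.04, without Phf21bΔ4/Δ4 replicate 3 it was -0.45, and with quantile normalization it was -0.09. Of the 6 ratios compared, none was past an adjusted p of 0.05, which this number of mice cannot reach.

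**Figure D4:**
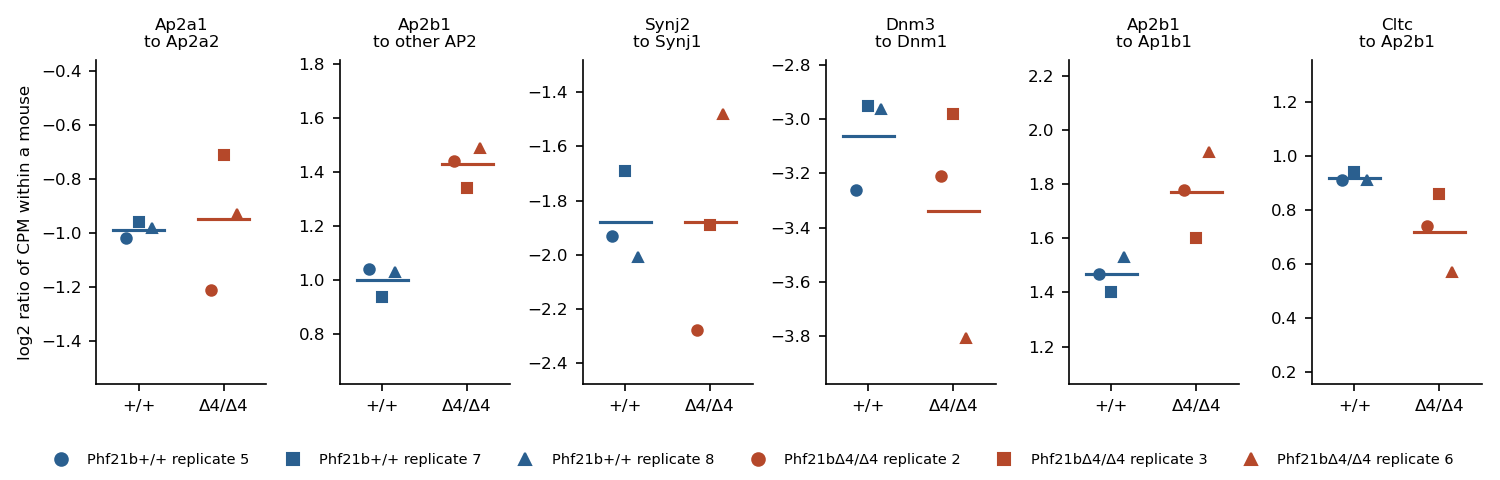
Log2 ratio of CPM between genes within a mouse (vertical axes, each panel with its own range of the same length), 1 point per mouse, with a line at the mean of each genotype. Both ratios with *Ap2b1* on top lie higher in all 3 Phf21bΔ4/Δ4 mice, the *Cltc* to *Ap2b1* ratio lies lower, and the 3 paralog ratios overlap.

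Levels of different genes were compared per kb of exon, since a longer transcript gives more reads. In Phf21b+/+ mice the order of CPM per kb was *Dnm1* (135 ± 23.9), *Cltc* (91.2 ± 9.13), *Ap2s1* (77.5 ± 3.90), *Ap2a2* (70.0 ± 7.91), *Ap2m1* (47.0 ± 2.30), *Ap2b1* (46.9 ± 5.08), *Ap2a1* (46.5 ± 4.10), *Synj1* (33.4 ± 5.53), *Synj2* (8.76 ± 0.604), and *Dnm3* (3.46 ± 0.323, SD, n = 3 each). In this order *Ap2s1* and *Ap2a2* overlapped over the mice, as did *Ap2m1*, *Ap2b1*, and *Ap2a1*, while the ranges of the other neighbours did not meet. In Phf21bΔ4/Δ4 mice *Ap2b1* had 76.0 CPM per kb and stood above *Ap2a1* (61.0) and *Ap2m1* (56.0), with a range of 70.4 to 83.0 against 53.2 to 68.5 and 49.0 to 60.4. Counted per kb of the longest transcript, *Ap2b1* stood above *Ap2a1* and *Ap2m1* on the mean in Phf21b+/+ mice too (73.0, 57.9, and 66.0 CPM per kb), and *Dnm3*, whose exons span far more than its longest transcript, came to 11.3 CPM per kb. *Dnm1* and *Cltc* headed the order and *Synj2* and *Dnm3* closed it under both lengths in Phf21b+/+ mice.

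The other genes of the pathway lay on both sides of 0. Of 76 further genes listed for clathrin-mediated and synaptic vesicle endocytosis and for the AP1, AP3, AP4, and AP5 adaptors, 74 had values, and 44 of them (59.5%) were higher in Phf21bΔ4/Δ4 mice, with a median log2 fold change of 0.074. Over all genes 47.6% were higher, and 69.4% of those with a mean log2 CPM of 6 or more. The 74 genes lie on both sides of that level. By limma 0 of the 74 were past both thresholds, and voom on the read counts gave 0 as well. Over all genes the shares were also small, at 1.22% by limma and 0.905% by voom. At an unadjusted p under 0.05, limma gave 18 higher and 8 lower, against 1685 higher and 1736 lower of all 14477 genes. In 17 genes the Phf21bΔ4/Δ4 mice all lay above the Phf21b+/+ mice, and in 8 genes all below, against 15.0% and 16.0% of all genes. Among genes with a mean log2 CPM of 6 or more, 30.6% lay all above, and 26.2% were higher at an unadjusted p under 0.05 by limma. Without Phf21bΔ4/Δ4 replicate 6, 16 of the 74 were past both thresholds, 13 of them higher, while 19.5% of all genes were past them in that fit.

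Among the 11 genes of the clathrin light chains and coat nucleation, 8 were higher, with a median of 0.10. *Eps15*, an early scaffold of the pit, had 576, 478, and 593 CPM in Phf21bΔ4/Δ4 replicates 2, 3, and 6 and 449.8, 427, and 491 CPM in Phf21b+/+ replicates 5, 7, and 8 (log2 fold change 0.26, FDR 0.22, limma), and *Necap2*, an AP2-binding protein, had a log2 fold change of -0.24 (FDR 0.18, limma). Of the 15 cargo and clathrin adaptors, 8 were higher, with a median of 0.023. *Snap91*, which encodes the neuronal assembly protein AP180, had 498, 464, and 354 CPM in the Phf21bΔ4/Δ4 mice and 344, 267, and 301 CPM in the Phf21b+/+ mice (log2 fold change 0.52, FDR 0.15, limma). The genotypes did not overlap in *Snap91*, and it stood on the side of the 10 genes. *Epn3*, an epsin, went the other way, at 1.52, 2.39, and 0.961 CPM in the Phf21bΔ4/Δ4 mice and 7.93, 35.2, and 4.36 CPM in the Phf21b+/+ mice (log2 fold change -2.82, standard error 0.76, FDR 0.14, limma). Its highest value was in Phf21b+/+ replicate 7, the mouse with the highest sum of choroid plexus markers, and the part of those cells in the *Epn3* value was not tested.

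Of the 14 genes for membrane bending and fission, 7 were higher, with a median of -0.027. *Amph*, which encodes amphiphysin, a partner of dynamin, had a log2 fold change of 0.33 (FDR 0.20, limma), and *Snx9*, a sorting nexin that also binds dynamin, had -0.59 (FDR 0.17, limma). All 3 uncoating genes were higher, among them *Hspa8*, which encodes the chaperone that strips clathrin, and *Gak*, which encodes its cofactor, each at 0.27 (FDR 0.19 and 0.15, limma). Among the 10 kinases and phosphatases 6 were higher, with a median of 0.10. *Aak1*, the kinase that phosphorylates the μ2 subunit, had 444, 474, and 365 CPM in Phf21bΔ4/Δ4 replicates 2, 3, and 6 and 325, 237, and 331 CPM in Phf21b+/+ replicates 5, 7, and 8, a log2 fold change of 0.53 (FDR 0.15, limma). *Hspa8*, *Gak*, and *Aak1* did not overlap between the genotypes. Of the 21 measured genes of the other adaptor complexes, 12 were higher, with a median of 0.087. Of the AP3 subunit genes, *Ap3b2*, which is neuronal, was at 0.45 (FDR 0.14, limma) and *Ap3d1* at 0.29 (FDR 0.16, limma).

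**Figure D5:**
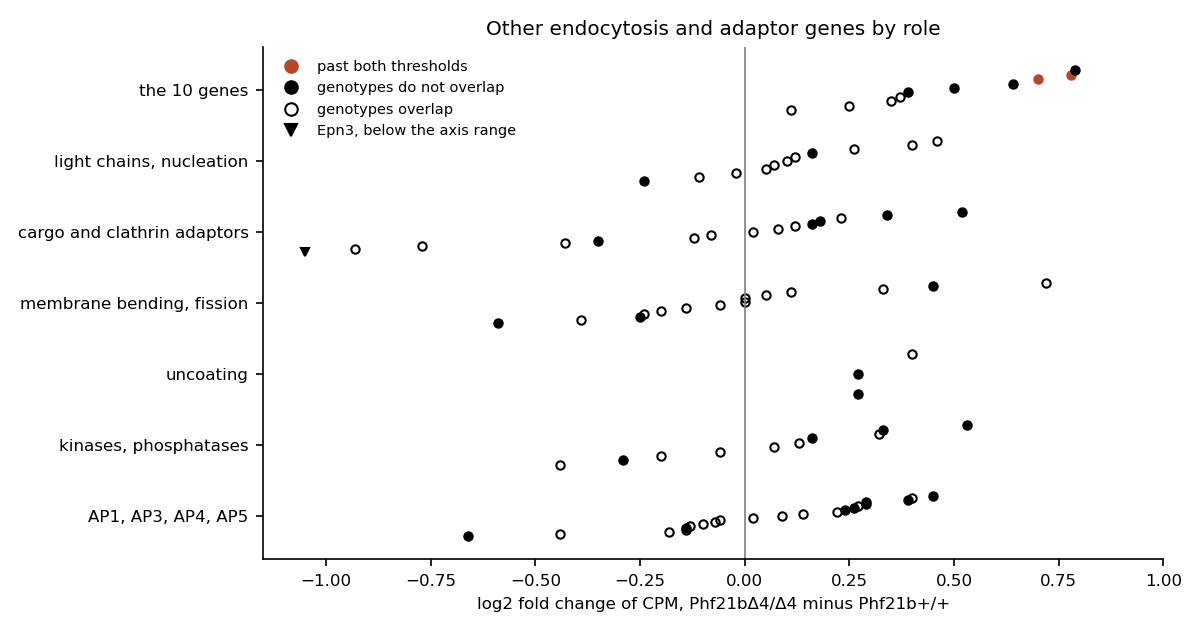
Log2 fold change (Phf21bΔ4/Δ4 minus Phf21b+/+, horizontal axis) of the 10 genes in the top row and of the 74 other endocytosis and adaptor genes by role, 1 point per gene. Filled points mark genes whose genotypes do not overlap, red points those past both thresholds, and the triangle *Epn3*, which at -2.82 lies outside the axis, while the points of most other roles lie on both sides of 0.

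The genes whose levels were most like those of *Ap2b1* over the 6 mice, by Pearson's r of log2 CPM among 12965 other genes whose mean log2 CPM was 1 or more, were *Supt6* (0.9978), *Kpna3* (0.9970), and *Fbxw5* (0.9954). For *Synj2* they were *Hs2st1* (0.9978), *Sez6l2* (0.9976), and *Trib1* (0.9973). The r covers 6 mice that share the difference between the genotypes and is given as a description.

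Markers of cell types and regions differed between the libraries along with the 10 genes. For comparison, 1.22% of all genes were past both thresholds in either direction. Without overlap, 15.0% of all genes were higher and 16.0% lower in Phf21bΔ4/Δ4 mice. Among genes with a mean log2 CPM of 6 or more, 30.6% were higher without overlap. The summed level of 6 CA1 markers, led by *Mpped1*, *Fibcd1*, and *Gpr161*, was 849.8 to 978 CPM in Phf21bΔ4/Δ4 mice and 293 to 365 CPM in Phf21b+/+ mice, with 3 of the 6 past both thresholds. The 6 dentate gyrus markers summed to 142, 139, and 522 CPM in Phf21bΔ4/Δ4 replicates 2, 3, and 6 and to 541 to 646 CPM in Phf21b+/+ mice, so replicate 6 stood apart from replicates 2 and 3. Of these 6 markers, 0 were past both thresholds, and 4 were lower without overlap. The 11 markers of the medial habenula, a region outside the hippocampus, summed to 6.44 to 10.5 CPM in Phf21bΔ4/Δ4 mice and 164 to 228 CPM in Phf21b+/+ mice. All 11 were past both thresholds, with *Pou4f1*, *Irx2*, *Chat*, and *Slc18a3* at 0 reads in at least 1 mouse. Most of these 11, and *Mpped1*, *Fibcd1*, and *Gpr161*, are also on the study's list of differentially expressed genes. That list was made from these libraries, so their calls are not independent evidence. Thalamus markers summed to 101 to 194 and 218 to 461 CPM (2 of 8 lower past both thresholds), and choroid plexus markers reached 15283 CPM in Phf21b+/+ replicate 7 and 945 CPM in replicate 8 against at most 78.2 CPM in the other 4 mice. The 7 interneuron markers summed to 644 to 817 CPM in Phf21bΔ4/Δ4 mice and 447 to 500.3 CPM in Phf21b+/+ mice, with 1 past both thresholds and all 7 without overlap. The 5 pan-neuronal markers, led by *Map2*, *Snap25*, and *Syt1*, summed to 7567, 7409, and 6105 CPM in Phf21bΔ4/Δ4 replicates 2, 3, and 6 and to 5894, 4605, and 5632 CPM in Phf21b+/+ replicates 5, 7, and 8. Of these 5 markers, 0 were past both thresholds, and 2 were higher without overlap. In the pan-neuronal and CA1 sums, replicate 6 was the lowest Phf21bΔ4/Δ4 mouse and replicate 7 the lowest Phf21b+/+ mouse, as in all 10 genes. Over all genes, replicate 6 was the lowest of its genotype in 37.5% and replicate 7 in 43.6%. From a mean log2 CPM of 6 up, these shares were 44.4% and 60.7%, so the match is given as a description only. The sums of the other lists did not have both of these mice lowest. The sums of CA2 and CA3, astrocyte, oligodendrocyte, microglia, and endothelium markers overlapped between the genotypes, with 1 astrocyte marker of these lists past both thresholds. Single markers of these lists did separate. Without overlap, 2 of 5 astrocyte markers and 1 of 6 CA2 and CA3 markers were lower in Phf21bΔ4/Δ4 mice, and 2 of 5 microglia and 2 of 4 endothelium markers were higher. The part of these markers in the levels of the 10 genes was not tested.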

How the data were processed

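RNA-Seq values of hippocampal tissue from 6 mice, 3 per genotype, were used. Samples were grouped by their labels. The authors trimmed reads with Trimmomatic 0.39, mapped them to GRCm38 with STAR 2.7.3a, counted them over GENCODE genes with featureCounts (Subread 1.6.4), and scaled to effective library size with edgeR. For 14477 genes the authors deposited log2 CPM, to which a prior count had been added. The lowest value, -7.81, stands for 0 reads. Low values rose in steps of 1 read, and 100.0% were whole reads within 0.1, which gave the CPM, the depth, and the counts for voom. The depth was 20495605 to 24881257 reads a mouse over all listed genes, and each of the 10 genes had 1534 to 28712 reads a mouse. A level of 3 reads was 0.127 to 0.143 CPM, which covers counting error only.

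Genotypes were compared on all genes with limma 3.58.1 in R 4.3.3 (lmFit, eBayes with trend, no covariate, Benjamini-Hochberg adjustment, 2-sided). This replaces the count test of the study. The script was tested on simulated reads with known changes, drawn independently for each gene with the same variability setting for all genes. Those reads had no trend with level and no differences in tissue composition. The simulation thus checks the code and not the FDR in these mice. The limma p-values set the genotype difference against the spread between mice of a genotype, moderated toward a trend over all genes. They cover these 6 libraries only. Positions and exons are from GENCODE M21 and promoters from RefSeq, and 98.6% of symbols were found. Tables and exact tests used pandas 2.3.3 and NumPy 2.4.6 in Python 3.11.15, and plots used matplotlib 3.10.9.

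The genes, lists, and alternatives were chosen with earlier results of these data known. Named were the 10 genes, *Phf21b*, the gene with the smallest p and that with the highest level of each pathway class, the 3 genes most like each gene past the thresholds, and of each marker list those at 0 reads and up to 3 with the highest level. *Dnm2*, *Fuz*, *Serac1*, and *Ap1b1* were named for the comparisons they enter, *Dnm2* after its values were seen. Alternatives were 1 prior variance for all genes, arrayWeights, a level filter, log2(CPM + 1), centring, quantile normalization, voom, other thresholds, each mouse left out, ratios of reads, and, added after the data were seen, corrections for exon length, GC content, and level, and the genes of the GC correction uncorrected.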

Additional observations from a re-analysis of the deposited data

How the results depend on the processing

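No paired analysis was possible because the sources used here name no pairs of mice and do not give the litter of each mouse. Each of the 10 genes stayed higher in Phf21bΔ4/Δ4 mice under each alternative run, in 170 results. The fits with 1 prior variance, the level filter, and the uncorrected genes of the GC correction use the same values for these genes. They could move the FDR but not the direction, so the 170 are not separate tests of it. Of the 170, 145 kept their side of the thresholds, 13 no longer passed (*Ap2b1* in 7 and *Synj2* in 6), and 12 newly passed. Of the 10 genes, 2 were past both thresholds in limma with all mice, 0 with 1 prior variance for all genes or at an FDR under 0.05, 1 with quantile normalization, 8 with arrayWeights, and 0 to 8 with 1 mouse left out. Over all genes the count was 176, and it became 75 with 1 prior variance, 3549 with arrayWeights, 101 for genes whose mean log2 CPM was 1 or more, 100 for the 12815 genes that the GC correction could use, 117 for these after that correction, 25 at an FDR under 0.05, and 9 to 2830 with 1 mouse left out. The 176 were 80 higher and 96 lower, the 100 were 55 and 45, and the 117 were 67 and 50. Of the 74 other pathway genes, 0 were past both thresholds, 14 with arrayWeights, and 0 to 16 with 1 mouse left out. The weight of Phf21bΔ4/Δ4 replicate 6 in arrayWeights was 0.343, the lowest, and Phf21b+/+ replicate 8 had 4.63, the highest. The *Ap2a1* to *Ap2a2* difference of 0.03 ranged from -0.08 to 0.16 with 1 mouse left out, and was -0.08 without Phf21bΔ4/Δ4 replicate 3. The *Synj2* to *Synj1* difference of -0.01 became 0.13 with quantile normalization and ranged from -0.21 to 0.19 with 1 mouse left out, with 0.19 without Phf21bΔ4/Δ4 replicate 2 and 0.08 without Phf21b+/+ replicate 7. The cause was not tested for any of these. With 1 mouse left out, a genotype has 2 mice and the estimate of the spread is pooled over both genotypes.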
